A study of Mus musculus with 8 samples.

Results

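The chromosome 9 odorant receptor (OR) genes measured here were the transcript clusters whose platform annotation gave a single OR symbol in the numbered series from Olfr828 to Olfr986, with Olfr917 left out and pseudogene symbols not used. A transcript cluster is the array's unit of measurement, the combined signal of the probes to all exons of a gene. The rule gave 105 clusters of 105 genes, out of 1023 OR clusters, 23410 clusters tested and 35557 clusters in the table. All 105 genes lay on chromosome 9 in RefSeq's annotation of GRCm38.p6, which holds 111 genes numbered in this range, and all kept their symbols there. RefSeq lists 103 of them as protein coding, Olfr908 as a transcribed pseudogene and Olfr915 as a non-coding RNA. Another 6 clusters carried several symbols, 1 of them in the range, and were not counted as members. No member had values identical to those of another cluster, but closely related ORs can share probes, so the value of a single receptor carries that uncertainty.

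ORs are the G-protein-coupled receptors with which olfactory sensory neurons (OSNs) detect odors. Each OSN expresses 1 allele of 1 OR gene and silences the rest, and OR genes sit in tandem clusters on many chromosomes. OSNs express Lhx2, a transcription factor with LIM domains and a homeodomain, and homeodomain sites, together with the O/E sites bound by Ebf factors, are found in the promoters and enhancers of OR genes. The large clusters of chromosome 9 hold class II ORs, the receptor class typical of land vertebrates, and include the well studied receptors M71 (Olfr151) and M72 (Olfr160).

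Olfactory mucosae of 8 mice at postnatal day 26 were each measured on an Affymetrix Mouse Gene 1.0 ST array, 4 from Lhx2 conditional knockouts and 4 from littermate controls, to learn whether OR mRNAs need Lhx2 once OSNs are mature. Knockouts were OmpCre:Lhx2(fl/fl). Control replicates 2 to 4 were OmpCre:Lhx2(fl/+), and control replicate 1 was Lhx2(fl/+) with no Cre. All 8 mice carried at least 1 floxed Lhx2 allele on the mixed 129 x C57BL/6J strain background. Cre is inserted in the Omp locus, so it acts in mature OSNs and leaves other cells of the tissue with Lhx2. The study describes the recombination as incomplete. Values are log2 expression values, differences are knockout minus control on that scale, ± after a difference is its standard error, and ± after a group mean is the SD over 4 mice. The mouse numbers in the sample titles begin with 5, 7 or 9, and the 3 sets are called title series here (2 knockouts and 2 controls in series 5, 1 of each in series 7 and in series 9). They are the one grouping other than genotype that the labels give.

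The targeted gene was measured first. In the order of replicates 1 to 4, used for all values below, controls had Lhx2 values of 12.39, 12.33, 12.29 and 12.33, and knockouts had 12.03, 11.99, 12.17 and 12.16. The groups did not overlap, and Lhx2 fell by 0.25 ± 0.06 (adjusted p = 0.0383 in limma), or 16.0%. Leaving out a single mouse lost that call for each of 7 mice, the exception being knockout replicate 3 (adjusted p up to 0.130), as did centring arrays on their median (-0.19, adjusted p = 0.117). Against the mature OSN markers described below, Lhx2 was higher by 0.32, on a scale where the median of all clusters was 0.62. Omp, a cytoplasmic protein of mature OSNs, read 13.78, 13.56, 13.22 and 13.27 in controls and 12.88, 12.80, 12.37 and 12.43 in knockouts. It too did not overlap and fell by 0.84 ± 0.15 (adjusted p = 0.00568). Control replicate 1, with the highest Omp value, was the only mouse without Cre in the Omp locus. Within title series 5, 7 and 9 the Omp difference was -0.83, -0.84 and -0.85. In series 7 and 9 control and knockout both carried Cre. The part of that insertion in the Omp difference was not tested.

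Upstream sequence is shown here for 3 members because the question of the study is a homeodomain factor acting on OR genes. The RefSeq promoter table gave 92 windows, from 250 bases before to 50 bases after an annotated start, for 91 of the 105 genes. In 60 of the 92 windows the annotated start was itself an ATG, so those windows lie before the coding sequence and not before a known transcription start. The 2 genes with the largest decreases and the 1 with the smallest were taken among windows that hold a homeodomain match and have no ATG at or just after the start. These were Olfr921 (chr9:38772838-38773137, plus strand), Olfr869 (chr9:20128870-20129169, plus strand, chosen after its values were seen) and Olfr866 (chr9:20027986-20028285, minus strand) in GRCm38.p6. They are printed 5′ to 3′ with the homeodomain letters TAATTA and TAATGA, on either strand, in capitals (TAATGA on the other strand reads TCATTA).
Olfr921: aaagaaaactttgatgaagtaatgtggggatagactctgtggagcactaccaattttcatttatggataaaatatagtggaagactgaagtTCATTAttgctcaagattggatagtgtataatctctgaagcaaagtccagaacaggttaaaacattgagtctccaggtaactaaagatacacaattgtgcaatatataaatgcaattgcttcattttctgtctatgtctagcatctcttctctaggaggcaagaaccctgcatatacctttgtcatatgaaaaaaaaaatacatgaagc
Olfr869: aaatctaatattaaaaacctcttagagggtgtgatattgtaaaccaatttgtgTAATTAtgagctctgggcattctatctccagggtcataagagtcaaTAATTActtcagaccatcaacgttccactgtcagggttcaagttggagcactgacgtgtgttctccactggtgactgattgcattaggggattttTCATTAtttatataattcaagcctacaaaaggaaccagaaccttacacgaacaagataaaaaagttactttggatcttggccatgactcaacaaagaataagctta
Olfr866: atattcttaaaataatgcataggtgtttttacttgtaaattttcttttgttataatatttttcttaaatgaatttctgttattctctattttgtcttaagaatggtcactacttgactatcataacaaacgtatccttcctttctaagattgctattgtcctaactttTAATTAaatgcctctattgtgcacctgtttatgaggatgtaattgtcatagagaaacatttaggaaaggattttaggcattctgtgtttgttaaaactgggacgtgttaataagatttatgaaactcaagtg
The match in Olfr921 begins 159 bases before the start, those in Olfr869 begin 197, 151 and 56 bases before it, and the match in Olfr866 begins 82 bases before it. Olfr921 and Olfr869 fell in knockouts and Olfr866 was not called. All 3 windows were picked for holding such letters, so their presence there is no result. Each window also holds an ATG further into the 50 bases after the start.

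Nearly all of the chromosome 9 ORs were less abundant in knockouts. Of the 105 members, 90 (85.7%) were called lower by limma at an adjusted p under 0.05, against 6.29% of all clusters tested, and 15 were not called. Their median difference was -1.05, with quartiles of -1.38 and -0.74, while the median over all clusters tested was 0.05. At the median, the mRNA was 51.8% lower. The difference was negative for 101 members and positive for 4, and 58 members fell below 50% of their control level. No member was called higher by limma, by the methods' t-test or at an unadjusted p under 0.05 in limma, against 2.1% of all clusters called higher. In 89 members all 4 knockout values lay below all 4 control values, against 7.83% of all clusters, and in 0 members they lay above, against 6.42%. Of the 90 called, Olfr837 (adjusted p = 0.0490) and Olfr875 (adjusted p = 0.0491) had overlapping groups and lay just inside the threshold (both named after their values were seen). The count was 75 lower with the methods' t-test and 80 to 89 when 1 mouse was left out.

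Averaged over the 105 members, the arrays of the 2 groups stood well apart. Their mean log2 value was 7.87, 7.76, 7.79 and 7.96 in controls (7.85 ± 0.09) and 6.85, 6.87, 6.85 and 6.71 in knockouts (6.82 ± 0.07). All 4 knockouts lay below all 4 controls, by 1.02 on average or 50.8%. Within title series 5, 7 and 9 the difference was -0.95, -0.94 and -1.25, and without the control that lacked Cre it was -1.01. Knockout replicate 4 was the lowest and stood apart from the other 3 knockouts. It held the lowest value of the 8 arrays for 49 of the 105 members, and control replicate 4, of the same title series, held the highest for 47. The decrease did not rest on that mouse, since without knockout replicate 4 the average difference was -0.99. In knockout replicates 1, 2 and 3 the value was below the lowest control for 93, 94 and 93 members. The share of all clusters for which this holds was not computed for single arrays. The difference was negative in every title series for 96 members.

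**Figure D1:**
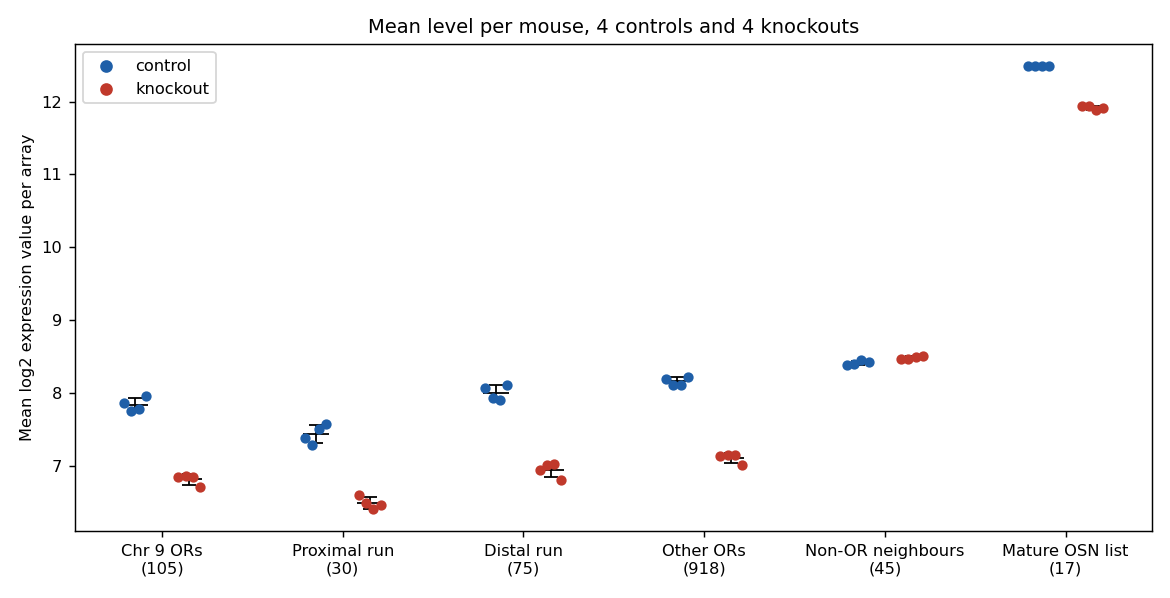
The mean log2 value over each set of clusters (vertical axis) is plotted for each mouse, with control and knockout mice side by side and the group mean and SD over 4 mice drawn for each set. For the chromosome 9 members the controls lie between 7.76 and 7.96 and the knockouts between 6.71 and 6.87, while the non-OR neighbours stay near 8.4 to 8.5 in both groups.

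The members with the largest decreases lay in several stretches of the gene order, some of them close together. They were taken among called members with separated groups, so that separation is no result of its own. In the order of the 105, Olfr845 and Olfr847 stood at 10 and 12, and Olfr919 and Olfr921 at 61 and 63. Olfr969 and Olfr972 stood at 90 and 93, Olfr893 at 43 and Olfr935 at 71. Olfr847 read 9.60, 9.36, 9.07 and 9.89 in controls and 7.51, 7.39, 7.24 and 6.95 in knockouts. The groups were separated by more than 1.5 log2 units, and Olfr847 fell by 2.21 ± 0.17 (adjusted p = 1.88e-05), the largest decrease among the 105. Its mRNA was 4.62 times lower.

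Olfr919 read 8.31, 8.15, 7.84 and 8.37 in controls and 6.44, 6.38, 6.09 and 5.93 in knockouts, a difference of -1.96 ± 0.14. Olfr893 read 9.62, 9.55, 9.38 and 9.95 in controls and 7.87, 7.86, 7.42 and 7.58 in knockouts, a difference of -1.94 ± 0.14. Neither receptor had overlapping groups, and in both each knockout was over 1 log2 unit below each control. Olfr969 read 9.46, 9.24, 8.96 and 9.19 in controls and 7.28, 7.58, 7.62 and 7.02 in knockouts (-1.84 ± 0.15). Olfr972 read 10.08, 9.91, 10.26 and 10.33 in controls and 8.35, 8.56, 8.14 and 8.27 in knockouts (-1.82 ± 0.11). These 2 also separated fully, and Olfr972 had 1 of the 6 highest control signals among the members.

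Olfr921, whose upstream sequence is printed above, read 8.71, 8.01, 8.47 and 8.27 in controls and 6.73, 6.73, 6.45 and 6.37 in knockouts (-1.79 ± 0.15). Olfr845 read 8.90, 8.46, 8.89 and 9.01 in controls and 7.05, 7.24, 6.98 and 7.23 in knockouts (-1.69 ± 0.12). Olfr935 read 8.05, 7.91, 7.92 and 8.23 in controls and 6.56, 6.65, 6.00 and 6.28 in knockouts (-1.66 ± 0.14). For these 8 receptors the mRNA left in knockouts was between 21.6% and 31.7% of the control level, no adjusted p exceeded 2.83e-05, and all 8 stayed called whichever mouse was left out. Olfr869, the other printed decrease, read 7.79, 7.72, 7.60 and 7.56 in controls and 6.31, 6.19, 5.66 and 5.97 in knockouts (-1.63 ± 0.13).

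The receptors with the highest control signals also fell. A signal reflects its own probes as well as abundance, so these values do not rank the mRNAs. Olfr958 read 10.42, 10.12, 9.71 and 10.41 in controls and 8.59, 8.67, 8.80 and 8.27 in knockouts (-1.58 ± 0.17, adjusted p = 0.000127). Olfr859 read 9.82, 9.36, 9.82 and 9.73 in controls and 8.74, 8.33, 7.86 and 8.10 in knockouts (-1.43 ± 0.18, adjusted p = 0.000427). Both were clear of overlap, but the mice of title series 7, control and knockout replicate 3, differed by 0.91 in Olfr958 and by 1.96 in Olfr859.

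Olfr923 read 9.91, 9.56, 9.70 and 9.999 in controls and 8.33, 8.71, 9.09 and 8.43 in knockouts (-1.15 ± 0.16, adjusted p = 0.000989). Olfr961 read 9.67, 9.46, 9.54 and 9.56 in controls and 8.07, 8.51, 8.99 and 8.26 in knockouts (-1.10 ± 0.17, adjusted p = 0.00166). In both, knockout replicate 3 was the highest knockout. Olfr963, which the study also localized by in situ hybridization, read 8.99, 8.93, 8.59 and 8.84 in controls and 7.81, 7.91, 8.11 and 7.64 in knockouts (-0.97 ± 0.12, adjusted p = 0.000318). Its difference in title series 7 was -0.48, against -1.10 and -1.20 in series 5 and 9. The same mouse held the highest knockout value in Olfr958, Olfr923, Olfr961 and Olfr963, yet the lowest in 27 of the 105 members.

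**Figure D2:**
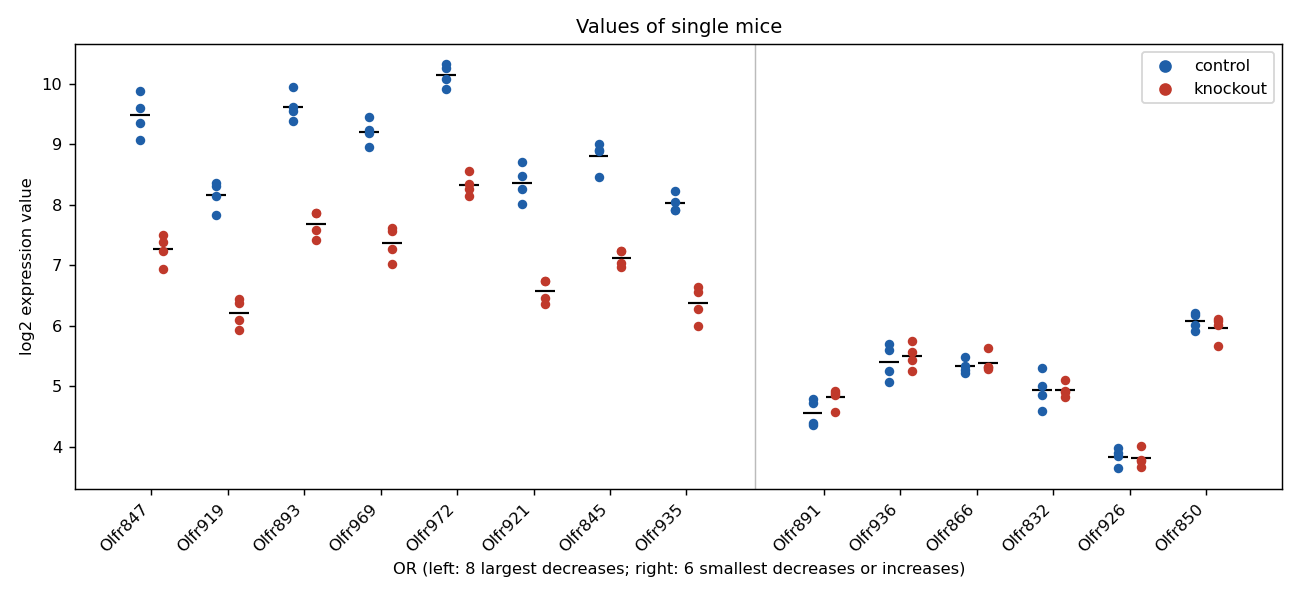
The log2 value (vertical axis) of the 8 receptors with the largest decreases and the 6 with the smallest is plotted for each of the 4 control and 4 knockout mice, with a line at each group mean. The receptors with the largest decreases, which were taken among called members with separated groups, show separate clouds for the 2 groups. In Olfr891, Olfr936, Olfr866, Olfr832, Olfr926 and Olfr850 the 2 groups overlap.

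The 15 members that were not called were mostly dim. Their control means ran from 3.84 to 7.86 with a median of 5.40, against a median of 8.34 for the 90 called, and their differences ran from -0.54 to 0.25. Of the 24 members with a control mean under 7, 11 were called, and of the 81 at 7 or above, 79 were called. Ranked by the mean over all 8 arrays, the dimmest 35 members had a median difference of -0.62 with 22 called, the middle 35 had -1.24 with 33 called, and the brightest 35 had -1.15 with 35 called. Log2 differences of dim probe sets can understate changes in mRNA, so a missed call does not show that a receptor was unchanged.

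**Figure D3:**
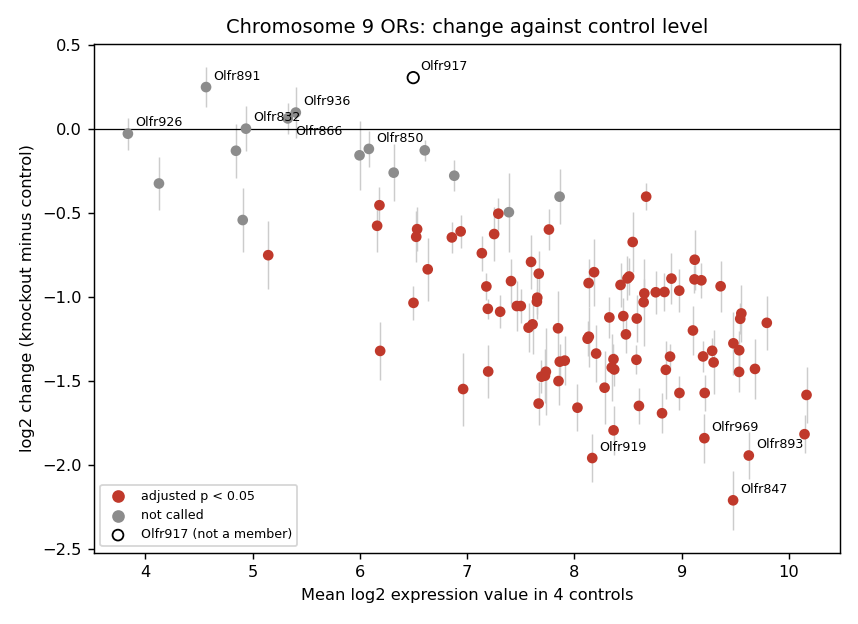
Each point is a member, with its mean log2 value in the 4 controls on the horizontal axis and its knockout minus control log2 difference with the standard error on the vertical axis, and Olfr917, not a member, is an open circle. The uncalled members gather at the left, 13 of 15 below a control level of 7, where called members with clear decreases also lie.

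The 6 members with the least decrease were all in that dim range. Olfr891 read 4.40, 4.71, 4.36 and 4.795 in controls and 4.89, 4.86, 4.58 and 4.93 in knockouts, a difference of 0.25 ± 0.12 (adjusted p = 0.313). Olfr936 read 5.06, 5.59, 5.25 and 5.71 in controls and 5.25, 5.74, 5.44 and 5.57 in knockouts, a difference of 0.10 ± 0.15. Olfr866 read 5.34, 5.22, 5.48 and 5.27 in controls and 5.32, 5.32, 5.28 and 5.63 in knockouts, a difference of 0.06 ± 0.09. The groups overlapped in each of these receptors, and none of the differences passed the test.

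Olfr832 read 4.86, 4.59, 4.997 and 5.30 in controls and 5.11, 4.92, 4.83 and 4.91 in knockouts, a difference of 0.00 ± 0.14. Olfr926 read 3.64, 3.89, 3.97 and 3.84 in controls and 3.67, 3.78, 4.02 and 3.77 in knockouts, a difference of -0.03 ± 0.09. Olfr850 read 6.18, 6.02, 5.92 and 6.22 in controls and 6.07, 6.11, 5.67 and 6.01 in knockouts, a difference of -0.12 ± 0.11. In all 3 the difference was close to or below its standard error and the groups overlapped.

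Olfr917, the gene that the rule leaves out, lies in the same stretch of chromosome 9. It read 6.48, 6.24, 6.45 and 6.81 in controls and 6.61, 6.79, 7.09 and 6.72 in knockouts. The groups overlapped, and its difference of 0.31 ± 0.13 had an unadjusted p of 0.0446 and an adjusted p of 0.259. The count of no member higher at an unadjusted p under 0.05 therefore rests on leaving it out. Its neighbours Olfr916 and Olfr918 (both named after their values were seen) fell (-1.38 and -1.39), whereas Olfr915, the locus listed as a non-coding RNA, differed by -0.50 (adjusted p = 0.310).

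Chromosome 9 held 20 more OR clusters, Olfr917 and others with symbols outside the numbered series, with a median difference of -1.14. Of these, 17 (85.0%) were called lower, against 83.1% of the ORs on other chromosomes and 6.29% of all clusters tested. Olfr151 (M71) read 5.93, 7.72, 5.95 and 7.30 in controls and 5.56, 5.47, 5.79 and 5.99 in knockouts. Its controls spread over nearly 2 log2 units and overlapped the knockouts, and the difference of -1.02 ± 0.38 did not pass (adjusted p = 0.170). M72 (Olfr160) was not analysed here, as no cluster carried its symbol alone.

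By RefSeq order the members fell into 2 runs of OR genes, separated by 305 genes without an Olfr symbol. The run nearer the centromere, from Olfr24 to Olfr18, holds 51 OR genes, 16 of them pseudogenes, and 30 members. The other, from Olfr160 to Olfr986, holds 127 OR genes, 31 of them pseudogenes, and 75 members. In the first run, called proximal here, 22 of 30 members (73.3%) were called lower with a median difference of -1.03. In the distal run, 68 of 75 (90.7%) were called lower with a median of -1.10. The median control level was 7.61 in the proximal run and 8.20 in the distal run, and dim members were called less often. The part of signal level in the 2 shares was not tested. Mean values per array were 7.38, 7.30, 7.51 and 7.58 in controls and 6.61, 6.49, 6.41 and 6.46 in knockouts for the proximal run. For the distal run they were 8.07, 7.94, 7.90 and 8.11 in controls and 6.95, 7.02, 7.03 and 6.81 in knockouts. Both runs separated the groups fully. The proximal difference minus the distal one was 0.10 on average, and was 0.23, -0.23 and 0.18 within title series 5, 7 and 9, so its sign was not the same in all series.

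Along the order, the decrease was spread over the whole length of both runs. In successive blocks of 15 members the median difference was -0.96 and -1.05 in the proximal run, and -0.94, -1.16, -1.20, -1.13 and -0.92 in the distal run. Every block had at least 10 of its 15 members called lower. The difference of a member and that of its next neighbour had a correlation of 0.01 (Pearson's r and Spearman's rho alike, over 103 neighbouring pairs measured on the same 8 arrays), and neighbours differed by a median of 0.49 against 0.47 for all 5460 pairs of members. Deviations from the group mean over the 8 mice had a median correlation of 0.30 between neighbours and 0.11 over all pairs. Neighbours tend to be related in sequence and can share probes, and the part of this in the correlation was not tested.

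**Figure D4:**
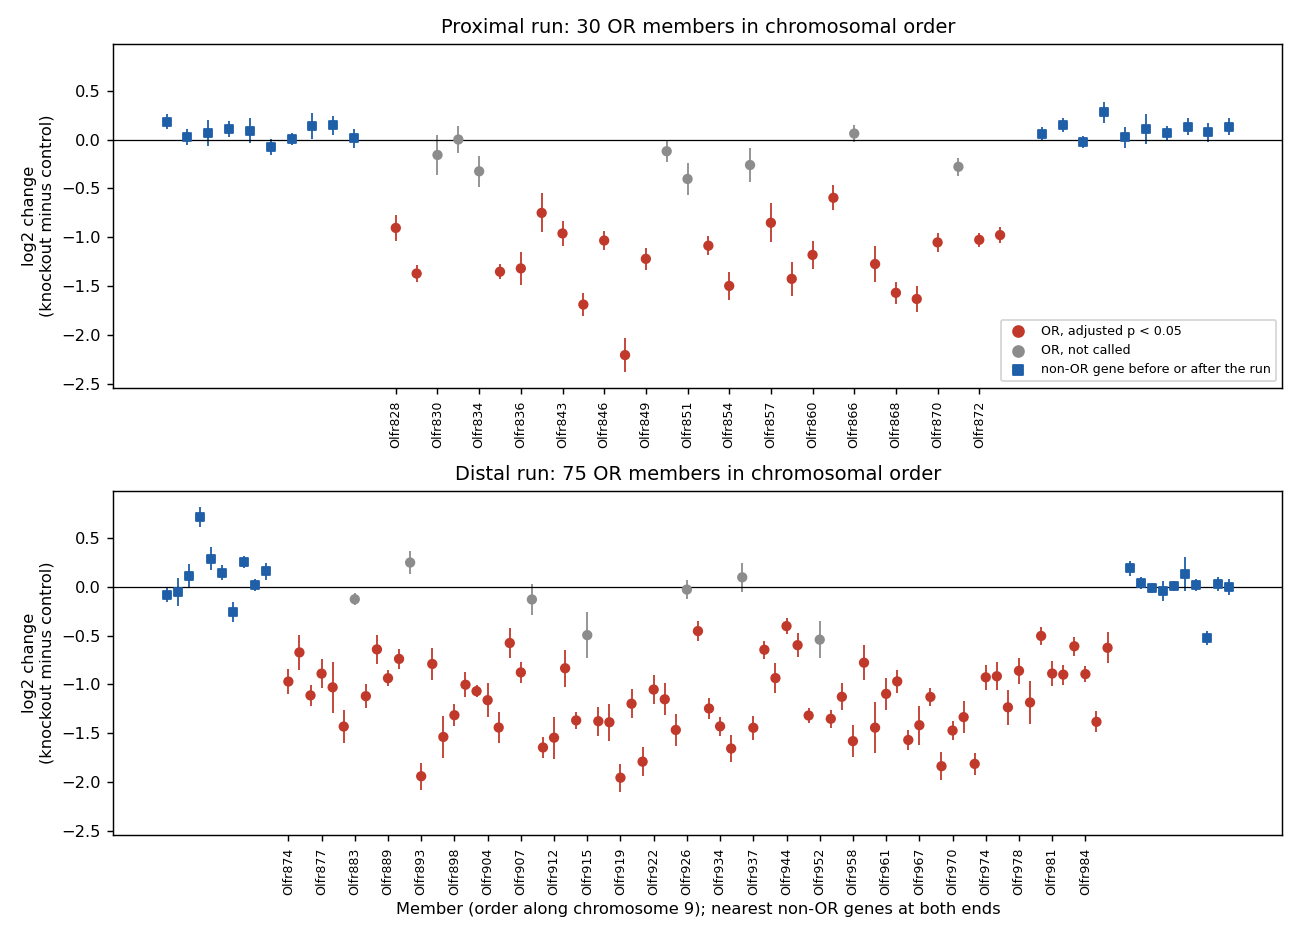
The knockout minus control log2 difference of each member (vertical axis) is drawn in gene order along the proximal and the distal run (horizontal axis, position in the order, not to scale in bases), with its standard error, called and uncalled members in different colors and the nearest genes without an Olfr symbol at both ends as squares. Decreases occur along both runs with uncalled members scattered among them, while the squares lie mostly near 0.

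Genes without an Olfr symbol in and around the runs mostly had differences near 0. The 45 measured genes inside the runs or among the 10 nearest on either side had a mean value of 8.42 ± 0.03 in controls and 8.48 ± 0.02 in knockouts, and a median difference of 0.07. By limma 1 of the 45 was called lower and 2 higher, against 6.29% and 2.1% of all clusters tested. The median difference over all clusters tested was 0.05. Jhy, a gene of motile cilia, fell from 10.17, 10.03, 10.23 and 10.10 in controls to 9.56, 9.51, 9.66 and 9.70 in knockouts (-0.52 ± 0.07, adjusted p = 0.000677). Esam, an adhesion molecule of endothelial cells, rose from 7.66, 7.87, 7.54 and 7.62 to 8.14, 8.46, 8.37 and 8.59 (0.72 ± 0.11, adjusted p = 0.00132). Neither gene had overlapping groups. Siae, a sialic acid acetylesterase, rose from 9.04, 9.02, 9.08 and 8.93 to 9.30, 9.34, 9.18 and 9.28 (0.26 ± 0.06, adjusted p = 0.0273), a call lost without any 1 of 6 of the 8 mice (adjusted p up to 0.0939). The 5 genes inside the runs, Zfp317, Vwa5a, AW551984, 1700001J11Rik and Tmem225 (all named after their values were seen), were not called and differed by -0.11 to 0.18.

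The chromosome 9 ORs had a median difference close to that of the other ORs. Of the 918 other OR clusters, 763 (83.1%) were called lower with a median difference of -1.04, and the spread over clusters was 0.55 (SD) against 0.50 for the members. The mean of the members minus that of the other ORs was -0.32 ± 0.04 in controls and -0.29 ± 0.01 in knockouts. That gap moved by 0.06, 0.02 and -0.03 within title series 5, 7 and 9, both up and down. Among the 13 chromosomes with at least 10 OR clusters, chromosome 9 with its 125 was the seventh in order of the median difference (-1.07), between -1.81 on chromosome 16 and -0.69 on chromosome 4.

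Homeodomain letters were more frequent in OR windows than in all promoters, and about as frequent in the members as in other ORs. TAATTA was in 22 of the 92 member windows (23.9%), in 18.1% of the windows of other ORs and in 5.29% of all 32851 promoter windows of the same length. TAATGA was in 24 (26.1%), 29.1% and 9.78% of these. Member windows were also richer in A and T, with a median of 66.0% against 64.7% in other ORs and 47.3% in all promoters, and the part of base composition in these shares was not tested. The letters CCCNNGGG, the core of the O/E site (N is any base), were in 1 member window (1.09%), against 3.29% of other OR windows and 13.7% of all promoters. Of the 32 member windows whose start was not an ATG, 8 held TAATTA and 11 held TAATGA. Of the same 32, 1 held CCCNNGGG (3.1%), against 8.37% of such windows in other ORs.

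The median difference was -1.10 for the 22 genes with TAATTA and -1.09 for the 69 without. For TAATGA it was -1.06 in 24 genes and -1.10 in 67. The 1 gene with CCCNNGGG differed by -0.61, against a median of -1.09 in the 90 without. A match of 6 letters is a description of the sequence and does not show a bound site, and enhancers were not analysed here.

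Genes listed for OR gene choice, with genes of OR trafficking and odorant signaling among them, had a smaller median difference than the ORs. Of 21 such genes, 8 were called lower and 0 higher by limma, against 6.29% and 2.1% of all clusters tested. At an unadjusted p under 0.05, 2 were higher, and 1 was higher by the methods' t-test. The median difference of the 21 genes was -0.11. Adcy3, the adenylyl cyclase of odorant signaling, read 12.73, 12.75, 12.40 and 12.49 in controls and 11.86, 11.72, 11.40 and 11.47 in knockouts (-0.98 ± 0.12, adjusted p = 0.000385). Ric8b, a chaperone of the olfactory G protein, read 12.98, 12.93, 13.05 and 13.003 in controls and 12.40, 12.38, 12.55 and 12.51 in knockouts (-0.53 ± 0.06, adjusted p = 0.000298). Both separated the groups fully. Atf5, the transcription factor of the OR-induced unfolded protein response, fell by 0.43 ± 0.06 (adjusted p = 0.000787), and Rtp2, which helps carry ORs to the cell surface, fell by 0.42 ± 0.06 (adjusted p = 0.00108). Relative to the mean of the mature OSN markers, a scale on which the median of all clusters was 0.62, the differences were 0.14 for Atf5 (adjusted p = 0.0527), 0.14 for Rtp2 (adjusted p = 0.0496) and 0.0353 for Ric8b (adjusted p = 0.624). Adcy3, Gnal, Ric8b, Rtp1 and Rtp2 are themselves among those markers, so the 2 lists are not separate results. The other genes called lower were Rtp1, Ebf3, Gnal and Lhx2, and the count was 4 to 6 when 1 mouse was left out.

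Markers of mature OSNs moved in the same direction as the chromosome 9 ORs. Of 17 such markers 15 were called lower and 0 higher by limma, against 6.29% and 2.1% of all clusters tested. No marker was higher at an unadjusted p under 0.05, and the median of the markers was -0.49. Their mean ran from 12.48 to 12.49 in the 4 controls and from 11.88 to 11.94 in the 4 knockouts, 32.5% lower. Cnga4, which modulates the cyclic nucleotide-gated channel that opens on odor stimulation, had the smallest p and fell from 11.93, 12.04, 11.94 and 12.05 to 10.10, 10.17, 9.60 and 9.99 (-2.02 ± 0.12, adjusted p = 3.12e-06). The pore subunit Cnga2 fell by 0.49 ± 0.05 (adjusted p = 0.000172), and Gng13, of the olfactory G protein, fell by 0.999 ± 0.11 (adjusted p = 0.000181). Some of these markers are themselves genes of OR signaling, and in whole mucosa fewer mature OSNs and less mRNA per OSN cannot be told apart.

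Measured relative to the mean of the 17 markers on each array, the members still differed by a median of -0.49, while the median over all clusters became 0.62. The study rescaled to a far larger set of mature OSN mRNAs, and that rescaling was not repeated here. The scale used here rests on the 17 markers alone, whose mean was 32.5% lower in knockouts. For its larger set the study reported a smaller average decrease. Centring on the 17 markers therefore takes more off the decrease of the ORs than the study's rescaling did. On that scale 70 of 105 members were called lower, against 3.43% of all clusters, and all 70 were among the 90. On the same scale 9 members were called higher, against 93.0% of all clusters, namely Olfr832, Olfr850, Olfr866, Olfr871, Olfr883, Olfr891, Olfr908, Olfr926 and Olfr936 (those outside the 6 described above were named after their values were seen). All 9 belong to the dim, uncalled members. The mean of the members minus that of the markers moved by -0.41, -0.33 and -0.68 within title series 5, 7 and 9.

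Among 12 immature OSN markers, 2 were called lower and 1 higher, against 6.29% and 2.1% of all clusters tested. The median difference of the 12 was 0.02. Tubb3 rose by 0.41 ± 0.06 (adjusted p = 0.00076), Stmn4 fell by 0.59 ± 0.13 (adjusted p = 0.0175) and Ncam1 fell by 0.22 ± 0.05 (adjusted p = 0.0303). The calls of Stmn4 and Ncam1 were each lost when certain single mice were left out (adjusted p up to 0.0592 and 0.0969). None of the 6 sustentacular, 7 basal and progenitor, 6 macrophage and 1 blood cell markers measured was called by limma in either direction, and at an unadjusted p under 0.05 1 basal and 1 macrophage marker were higher and none was lower. The mean of the sustentacular markers ran from 12.55 to 12.63 in controls and from 12.59 to 12.70 in knockouts. For basal cells and progenitors the ranges were 9.31 to 9.52 and 9.40 to 9.54, for macrophages 8.11 to 8.33 and 8.13 to 8.39, and for immature OSNs 11.19 to 11.22 and 11.12 to 11.31, so the groups overlapped in each list. Examples are Cyp2g1 (0.04 ± 0.05) and Cbr2 (0.06 ± 0.07) of sustentacular cells, Sox2 (0.00 ± 0.10) and Neurod1 (0.13 ± 0.07) of progenitors, Csf1r (-0.10 ± 0.14) and C1qb (0.16 ± 0.08) of macrophages, and Alas2 (0.15 ± 0.14) of blood. The part of cell composition in the decrease of the ORs was not tested.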

How the data were processed

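Total RNA from the olfactory mucosa of 8 mice at postnatal day 26 was hybridised to Affymetrix Mouse Gene 1.0 ST arrays, 1 mouse per array. The deposited values are log2 expression values per transcript cluster that the authors made with Affymetrix Expression Console, with its version, its settings and the build of the array design not given in the sources used here. They ran from 2.35 to 14.6 and were used as deposited, without the rescaling to mature OSN mRNAs that the study applied. Precision rests on the number of arrays. Nothing in the labels ties litters to mice, and mice are the replicates.

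Clusters were named from the platform annotation, updated by Entrez ID with the RefSeq table of GRCm38.p6: 21789 had 1 symbol (21698 matched), 1621 several and 12147 none. The 23410 with a symbol were tested, knockout minus control, by limma 3.58.1 (lmFit, eBayes; R 4.3.3) with Benjamini-Hochberg adjustment over all of them, called at an adjusted p under 0.05. The code was tested on simulated data. Runs of ORs were split where more than 3 genes without an Olfr symbol intervened. Named are Lhx2, Omp, the 8 called members with the largest decrease and separated groups, the 6 with the smallest, the 6 with the highest control mean, Olfr963, Olfr917, Olfr151, and per list up to 4 called genes with the smallest p, or the 2 brightest. Members and lists were chosen with earlier results of these data known. The methods' t-test was run on the same values, and its counts are 75 members lower and 0 higher after Benjamini-Hochberg adjustment, and 42 lower with both p and adjusted p under 0.01. Other alternatives were other centring, quantile normalization, title series as a block, array weights, an intensity trend, all clusters, brighter clusters and each mouse left out. Protein sequences were not analysed here. Summaries and figures were made in Python 3.11.15 with matplotlib 3.10.9.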

Additional observations from a re-analysis of the deposited data

Results flagged for a closer look

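In 5 of 98 groups of 4 mice (5.10%), 1 mouse lay far from the other 3, and chance alone gives about 1 in 20. The mean of the chromosome 9 members was 6.71 in knockout replicate 4 against 6.85 to 6.87 in the other knockouts. The mean of the other ORs was likewise 7.01 in knockout replicate 4 against 7.13 to 7.16. Olfr866 was 5.63 in knockout replicate 4 against 5.28 to 5.32. Cnga2 was 13.13 in control replicate 2 against 13.11 to 13.12, and 12.56 in knockout replicate 3 against 12.65 to 12.66.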

How the results depend on the processing

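The decrease kept its direction in every setting run. Members called lower were 70 to 90 in the settings over all 105 members and 80 to 89 when 1 mouse was left out. Members higher were 0 except relative to the mature OSN list, where they were 9. With brighter clusters only, 18 members remained, all 18 called lower. Apart from this setting, the mature OSN list shared the fewest calls, 70 of the 90. Centring on that list moved the median of the members to -0.49, their mean to -0.46, the proximal and distal medians to -0.46 and -0.53, and the medians with TAATTA and TAATGA to -0.54 and -0.49. Brighter clusters gave -1.30 (median), -1.27 (mean), -1.35 (proximal), -1.26 (distal), -1.35 (TAATTA) and -1.32 (TAATGA). With array weights the median with TAATTA was -1.01.

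Relative to the same list, Lhx2 reversed to 0.32 (adjusted p = 0.00139). It lost its call after median centring (-0.19, adjusted p = 0.117), with all clusters tested (-0.25, adjusted p = 0.0788) and in 7 of 8 settings that left out 1 mouse (-0.28 to -0.22 over all 8). Of the OR gene choice list 5 genes were lower and 1 higher after median centring, 1 lower and 17 higher relative to the mature OSN list, and 5 lower with all clusters tested. With array weights and with the methods' t-test 1 was higher, and leaving out 1 mouse gave 4 to 6 lower. Of the neighbours without an Olfr symbol, 0 were lower and 44 higher relative to the mature OSN list. With all clusters or brighter clusters 1 was higher, and leaving out 1 mouse gave 1 to 2 higher. With the title series as a block 2 were lower.

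Relative to the mature OSN list, the differences of Olfr926 (0.54), Olfr850 (0.45), Ric8b (0.0353), Atf5 (0.14), Rtp2 (0.14), Cnga2 (0.0813), Ncam1 (0.35), Csf1r (0.47) and Jhy (0.0441) also reversed. That centring shifts the median of all clusters to 0.62. Of the other values of named genes under alternatives, 655 stayed on their side of the threshold, 11 gained a call and 23 lost it. Omp lost it after centring on the mature OSN list (adjusted p = 0.100) and in the methods' t-test (adjusted p = 0.0526). Omp, Cnga2, Ric8b and Rtp2 belong to that list, so centring on it measures each of them partly against itself. The causes were not tested.

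The labels give no replicate numbers that pair the mice, and those used here only name them. With the title series as a block, 89 members were called lower, 88 of them among the 90. Of the 24 members with a control level under 7, 11 were called, against 79 of 81 at or above it, and the smallest change that 4 mice a group could show was not computed.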
